A study of Mus musculus with 6 samples.

Results

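The genes described here are the amino acid stress response of ATF4, a set of 43 mouse genes. They were chosen by symbol as known members of the pathway. The rule uses no measured value, but the members were chosen with earlier results of these data known. All 43 were present among the 15973 protein-coding genes of the deposited comparison table, and 42 of them were abundant enough to be tested, out of 12572 genes tested in all. They comprise 12 regulators and stress effectors, 10 synthesis enzymes, 9 amino acid transporters, and 12 genes of tRNA charging, which are 11 cytosolic tRNA synthetases and the tRNA exporter Xpot. The one member not tested was Gdf15, a secreted stress cytokine, which lay between 0.0251 and 0.0793 CPM (the count of a gene scaled to the size of its library) in the 6 libraries.

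ATF4 is a transcription factor whose translation increases when the initiation factor eIF2 is phosphorylated, an event that the kinase GCN2 drives when uncharged tRNA accumulates and that PERK, PKR and HRI drive under other stresses. Together with partners of the C/EBP family it binds composite DNA elements in genes that import amino acids, synthesize asparagine, serine, glycine and proline, and charge tRNAs. Its induced genes also include CHOP (the product of Ddit3), the pseudokinase TRIB3, which represses ATF4, and GADD34 (the product of Ppp1r15a), which reverses eIF2 phosphorylation. Tumour cells can rely on this response for amino acid supply when growth outpaces nutrient delivery.

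The cells were 4T1-T, a VM sub-clone of the mouse mammary carcinoma line 4T1, where VM is vasculogenic mimicry, the formation of vessel-like channels by tumour cells. Since the line is 1 clone, the 6 libraries describe that clone only. Neither group is labelled with a genetic change or a drug. Both were grown in RPMI with 10% FBS and L-glutamine, kept overnight without serum in Opti-MEM with 0.3% BSA, and exposed for 4 h to acetylated low-density lipoprotein (acLDL) carrying Alexa-488 at 10 ug/mL. After washing, both spent 1 h in complete medium, were trypsinized and were sorted by fluorescence. The brightest 25% formed the acLDL-high group (n = 3) and the dimmest 25% the acLDL-low group (n = 3), and the experiment was done on 3 occasions, so that each replicate number holds 1 library of each group. The contrast therefore asks how transcripts of the ATF4 response differed between cells that took up much and little acLDL on the same occasion, both with the lipoprotein and both in serum for the last hour.

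The library totals lay between 70263372 and 94216786 counts, and 3 counts corresponded to 0.0323 to 0.0429 CPM. All 10 mammary epithelial carcinoma markers examined exceeded 1 CPM, with summed levels of 3474 to 5826 CPM in acLDL-low and 3934 to 6288 CPM in acLDL-high libraries, and 3 of them, the claudins Cldn3, Cldn4 and Cldn7, were called higher in acLDL-high cells (edgeR adjusted p under 0.05). Of 12 macrophage markers, 8 were in the table and of these Csf1r, Lyz2, Itgam and Fcgr1 had at most 4 counts in any library and Ptprc at most 16. Cd68 (6.75 to 10.7 CPM), Cd14 and Mrc1 (1.51 to 2.99 CPM) were detected throughout. The summed level of the list was 19.2 to 21.6 CPM in acLDL-low and 20.1 to 24.4 CPM in acLDL-high libraries, and Cd14 was called higher. Summed levels of endothelial (1.96 to 3.18 against 1.80 to 2.64 CPM), fibroblast (29.0 to 41.1 against 29.8 to 43.3 CPM) and lipid-laden cell markers (145.6 to 168.7 against 136.3 to 169.3 CPM) overlapped, and none was called. The part of Cd14 and of the claudins in the results that follow was not tested. In such bulk samples, fewer cells of a type and less RNA per cell cannot be told apart.

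The DNA letters around the start sites of the members are shown before their levels, because they do not come from the libraries. The core of the composite element that ATF4 and C/EBP factors bind together, TGATGNAA, was searched on both strands from 250 bases before to 50 bases after each RefSeq transcription start (GRCm38.p6). Of the 43 members, 34 had an entry, and Cars, Cth, Eif4ebp1, Lars, Nars, Slc1a5, Slc7a3, Slc7a5 and Wars did not. At least 1 match was found in 12 of the 34 (35.3%), against 271 of 9851 genes tested with an entry (2.75%) and 4.51% of all genes with an entry. By role, the matches were in 5 of 8 tRNA charging genes, 3 of 11 regulators, 2 of 6 transporters and 2 of 9 synthesis enzymes. The matches of 11 of these genes, 12 in all, are given below with 10 bases on either side, read 5′ to 3′ on the strand that spells the motif, with the 8 matched letters in capitals. These windows were printed because they hold the core, so its presence in each follows from that choice.
Chac1, chr2:119351039-119351066, minus strand: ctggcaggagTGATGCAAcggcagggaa
Trib3, chr2:152344029-152344056, plus strand: cccgcccggcTGATGTAAacctgagcta
Slc7a11 match 1, chr3:50443662-50443689, minus strand: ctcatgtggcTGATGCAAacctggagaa
Slc7a11 match 2, chr3:50443643-50443670, plus strand: ggctgcatgaTGATGCAAattctccagg
Yars, chr4:129189896-129189923, plus strand: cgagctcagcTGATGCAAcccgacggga
Asns, chr6:7693215-7693242, minus strand: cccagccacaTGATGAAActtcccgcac
Gars, chr6:55037961-55037988, minus strand: gcccggtgcaTGATGAAAtagcgcagcc
Nupr1, chr7:126625563-126625590, plus strand: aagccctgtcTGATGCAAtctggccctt
Slc1a4, chr11:20332700-20332727, plus strand: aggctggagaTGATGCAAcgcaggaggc
Pycr1, chr11:120643834-120643861, minus strand: gccctgtgtaTGATGCAAtgcacaaggc
Iars, chr13:49682127-49682154, minus strand: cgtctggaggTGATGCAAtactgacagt
Tars, chr15:11399656-11399683, plus strand: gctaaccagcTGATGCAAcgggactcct

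Most of these matches read TGATGCAA, whereas Asns and Gars carried an A in the open position and Trib3 a T. Those of Trib3, Yars and Iars began within the first 50 transcribed bases. A further pair of sequences gives the context of Chac1, the member whose level varied most between occasions, and of Slc7a11, the cystine transporter, which has a pair of matches. Each is the 250 bases that end just before the RefSeq start, on the strand of the gene, with matches on either strand in capitals.
Chac1, chr2:119350992-119351241, plus strand: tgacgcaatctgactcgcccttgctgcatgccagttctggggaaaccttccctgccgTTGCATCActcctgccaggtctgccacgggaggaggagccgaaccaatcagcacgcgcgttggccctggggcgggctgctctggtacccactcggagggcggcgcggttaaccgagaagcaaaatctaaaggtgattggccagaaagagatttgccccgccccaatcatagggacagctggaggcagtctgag
Slc7a11, chr3:50443614-50443863, minus strand: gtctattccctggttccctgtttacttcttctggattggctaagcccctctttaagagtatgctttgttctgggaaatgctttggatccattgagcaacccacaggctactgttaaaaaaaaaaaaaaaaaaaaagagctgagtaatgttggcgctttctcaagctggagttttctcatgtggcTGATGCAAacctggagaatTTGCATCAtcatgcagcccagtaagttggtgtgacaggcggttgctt

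In Slc7a11 the matches lay on opposite strands in a stretch shorter than the printed windows, while in Chac1 the single match stood on the strand opposite to transcription. A match describes letters in a window and does not show binding, and its absence says only that these letters were not in that window. The tested members with a match (12 genes, 11 with a log2 fold change below 0, median -0.14) and those without one (21 genes, 19 below 0, median -0.11) had similar medians, and that difference was not tested. Among all tested genes with a match the median was 0.01.

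Most genes of the ATF4 response lay slightly below 0 in acLDL-high cells, with the regulators furthest from it, and a minority passed the test. The log2 fold change of acLDL-high over acLDL-low cells was fitted with edgeR on counts, with the replicate number as a block, and p-values were adjusted by Benjamini-Hochberg over all 12572 genes. In that fit 597 genes (4.75%) passed an adjusted p of 0.05, 431 (3.43%) higher and 166 (1.32%) lower in acLDL-high cells. Of the 42 tested members, 7 were called lower (Trib3, Ddit3, Chac1, Sesn2, Eif4ebp1, Atf4 and Slc6a9) and 0 higher. At an unadjusted p under 0.05, 25 members were lower and 1 was higher, where 8.73% of all genes tested were lower and 10.6% higher. DESeq2, which gave an adjusted p for 41 members, called 8 lower and 0 higher, against 0.909% of 11328 genes lower and 3.22% higher.

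Direction was shared more widely than the calls. Of the 42 members, 39 (92.9%) had a log2 fold change below 0, against 49.4% of all genes tested, and 30 (71.4%) were lower in all 3 pairs, against 19.4% of all genes. The median log2 fold change was -0.11, beside 0.0017 for all genes, and the medians of the 3 pairs were -0.08, -0.14 and -0.10. By role, the medians were -0.17 for the 11 tested regulators, -0.09 for the synthesis enzymes, -0.07 for the transporters and -0.10 for the tRNA charging genes. The members share an upstream regulator by the way they were chosen, so they are not independent of each other.

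**Figure D1:**
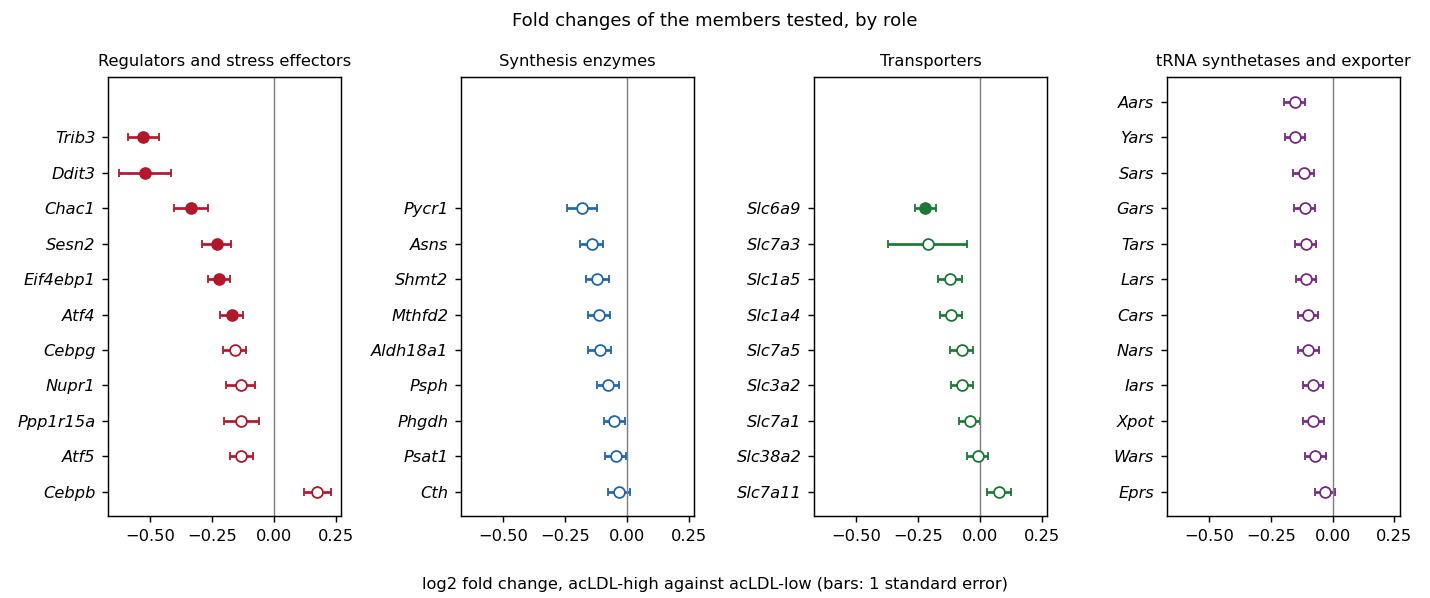
Log2 fold change of acLDL-high over acLDL-low cells (x axis) for the members tested in each role, with bars of 1 standard error and filled circles where the edgeR adjusted p was under 0.05. Regulators from Trib3 to Atf4 and the transporter Slc6a9 are filled, all tRNA charging genes sit left of 0, and Cbs (0.56, standard error 0.45) is left out for its scale.

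The populations differed within each occasion, not across them. CPM ranges of the 3 acLDL-high and 3 acLDL-low libraries overlapped for all 42 members, where 2.86% of all genes had ranges that did not. Without the replicate block, 0 of the 12329 genes then tested were called, 45 had an unadjusted p under 0.05, and none of those was a member, each of the 7 called members having an edgeR adjusted p of 1. Their log2 fold changes in that fit were still below 0, from -0.49 for Ddit3 to -0.15 for Atf4. The 7 calls thus rest on comparing libraries of the same occasion.

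Per length of annotated exon, Atf4 was the most abundant of the regulators. Atf4 measured 266, 602 and 372 CPM in acLDL-low replicates 1, 2 and 3 and 221, 548 and 344 CPM in the matching acLDL-high libraries. The acLDL-high library was the lower one in each pair, but the spread across occasions was wide enough that the groups overlapped. The log2 fold change was -0.17 (SE 0.05, edgeR adjusted p = 0.0497), which corresponds to 0.888 times the acLDL-low level. This call lay at the threshold: over the 9 alternative settings the adjusted p ran from 0.00875 to 1, and it was lost without replicate pair 1 (0.255), without pair 3 (0.150), with at least 10 counts in every library (0.0511), with all gene IDs (0.0594) and without the block (1).

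Trib3 encodes the pseudokinase that binds and restrains ATF4. Its level was 46.5, 78.3 and 100.7 CPM in acLDL-low replicates 1 to 3 and 27.5, 61.8 and 71.0 CPM in acLDL-high replicates 1 to 3. Every pair had the acLDL-high library well below its partner, by -0.76, -0.34 and -0.50 on the log2 scale, although acLDL-high replicates 2 and 3 still exceeded acLDL-low replicate 1. With a log2 fold change of -0.53 (SE 0.06, edgeR adjusted p = 0.000512) it was the member with the smallest p, and the one call kept when replicate pair 3 was left out (0.0319, in a range from 5.33e-22 to 1 over the alternatives). Its exons overlap no other annotated gene at chr2:152337422-152344032 (GRCm38, minus strand).

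Ddit3 encodes CHOP, the transcription factor that links prolonged stress to cell death. It had 17.5, 21.8 and 14.4 CPM in acLDL-low and 8.92, 17.5 and 11.65 CPM in acLDL-high replicates 1 to 3. Pair 1 had the widest gap, the acLDL-low library being near the level of acLDL-high replicate 2, so the ranges overlapped. The log2 fold change was -0.52 (SE 0.11, edgeR adjusted p = 0.0145), with pair differences of -0.97, -0.32 and -0.31, and the call was lost without pair 3 (0.0827, in a range from 4.61e-10 to 1). Its locus at chr10:127290774-127296288 shares 105 exon bases with a second annotated Ddit3 entry on the same strand and 81 with Mars and Gm4189 on the other, and the strand setting of the counting was not given in the sources used here, so such reads cannot be told apart.

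Chac1 encodes a gamma-glutamylcyclotransferase that breaks down glutathione. Its values were 8.93, 88.0 and 40.5 CPM in acLDL-low and 5.64, 74.4 and 34.2 CPM in acLDL-high replicates 1 to 3. Occasions differed far more than populations, and both libraries of replicate 1 lay below every library of replicates 2 and 3. Within pairs the differences were -0.66, -0.24 and -0.24, and the log2 fold change was -0.34 (SE 0.07, edgeR adjusted p = 0.0147), a call lost without pair 3 (0.102, in a range from 2.9e-05 to 1).

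Sesn2, a leucine-binding inhibitor of mTORC1 signalling, had 16.4, 68.0 and 39.2 CPM in acLDL-low and 12.2, 59.6 and 36.1 CPM in acLDL-high replicates 1 to 3. Again the acLDL-high library was the lower of each pair and the ranges overlapped. Its log2 fold change of -0.23 (SE 0.06, edgeR adjusted p = 0.0432) passed the threshold narrowly, with a range of 0.0108 to 1 over the alternatives and losses under DESeq2 (0.0563), with all gene IDs (0.0509), without pair 1 (0.131) and without pair 3 (0.121). Eif4ebp1 encodes 4E-BP1, the repressor of cap-dependent translation. Its levels were 173.7, 286.4 and 273.7 CPM in acLDL-low and 158.2, 236.5 and 229.6 CPM in acLDL-high replicates 1 to 3. Pairs 2 and 3 differed by more than pair 1, and acLDL-low replicate 1 fell below acLDL-high replicates 2 and 3. The log2 fold change was -0.22 (SE 0.04, edgeR adjusted p = 0.0127), lost without pair 3 (0.131, in a range from 0.000697 to 1).

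**Figure D2:**
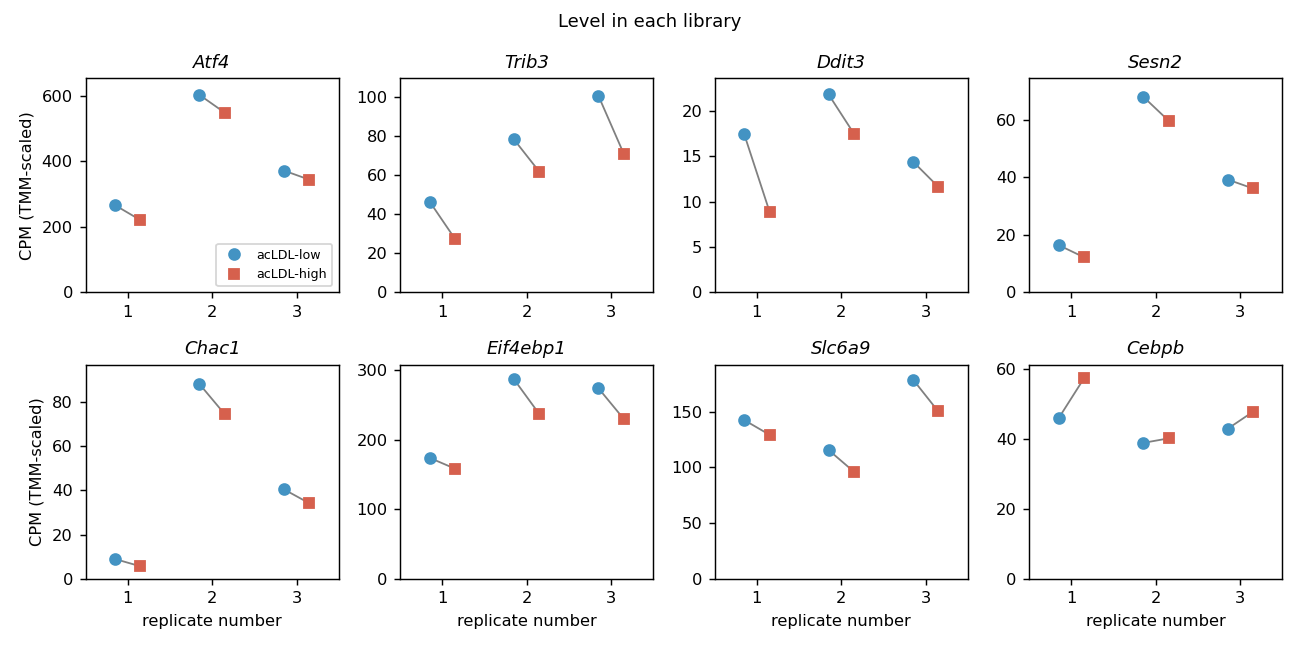
TMM-scaled CPM (y axis, from 0) of the 7 called members and Cebpb in each library against replicate number (x axis), with circles for acLDL-low, squares for acLDL-high and a line joining the libraries of an occasion. For the called members each line falls from acLDL-low to acLDL-high, whereas those of Cebpb rise, and occasions differ by more than the populations.

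The other regulators did not pass the test. Cebpb, which encodes a C/EBP partner of ATF4, had the opposite sign to the rest. It stood at 45.9, 38.8 and 42.8 CPM in acLDL-low and 57.3, 40.1 and 47.7 CPM in acLDL-high replicates 1 to 3. The acLDL-high library was the higher in each pair, by 0.32, 0.05 and 0.16, with a log2 fold change of 0.18 (SE 0.05, edgeR adjusted p = 0.0940, between 0.00467 and 1 over the alternatives). It was called without replicate pair 2 (0.00467), although pair 2 had the same sign, and without the low-count filter (0.0333), and 312 of its exon bases overlap Tmem189 on the opposite strand.

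Cebpg, the other C/EBP partner in the set, had a log2 fold change of -0.16 (SE 0.05, edgeR adjusted p = 0.0671) with levels of 53.3 to 81.0 CPM, and was lower in all 3 pairs. Atf5, a related factor also under translational control, had -0.13 (SE 0.05, edgeR adjusted p = 0.133), and its pairs ranged from -0.02 to -0.21. Nupr1, a chromatin-associated stress protein, had -0.13 (SE 0.06, edgeR adjusted p = 0.228), and Ppp1r15a had -0.13 (SE 0.07, edgeR adjusted p = 0.334). These last genes were mixed in direction, Nupr1 being higher in acLDL-high cells in pair 2 and Ppp1r15a in pair 3. Atf5 was called without replicate pair 1 (edgeR adjusted p = 0.0343, up to 1 over the alternatives) and Nupr1 without pair 2 (0.00229, up to 1).

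The synthesis enzymes were mostly slightly lower and none was called. At an unadjusted p under 0.05, 5 of the 10 were lower and 0 higher (all genes, 8.73% and 10.6%), and DESeq2 also called 0. Asns, the asparagine synthetase often used as a readout of ATF4, had 347, 437.8 and 481.2 CPM in acLDL-low and 317.2, 370.5 and 462.4 CPM in acLDL-high replicates 1 to 3. It was lower in each acLDL-high library than in its partner, with overlapping ranges and a log2 fold change of -0.14 (SE 0.05, edgeR adjusted p = 0.109). Pycr1, which makes proline, had the largest negative value of the group, -0.18 (SE 0.06, edgeR adjusted p = 0.120), at 12.3 to 29.7 CPM.

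The serine pathway differed little between the populations. Phgdh, which catalyses its first step, had a log2 fold change of -0.05, Psat1, the transaminase of the second step, -0.05, and Psph, the phosphatase of the last step, -0.08, with standard errors of 0.04 each and edgeR adjusted p-values of 0.583, 0.609 and 0.368. The mitochondrial folate enzymes that use serine, Shmt2 and Mthfd2, had -0.12 and -0.11 (edgeR adjusted p = 0.187 and 0.176). Aldh18a1, which feeds proline synthesis, had -0.11 (edgeR adjusted p = 0.196). Each of Psat1, Psph, Shmt2, Mthfd2, Aldh18a1, Asns and Pycr1 was lower in all 3 pairs, although Shmt2 differed by only -0.0032 in pair 1.

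The transsulfuration enzymes that make cysteine from homocysteine stood apart in level. Cth, the second enzyme, had 28.3 to 71.6 CPM and a log2 fold change of -0.03 (edgeR adjusted p = 0.773). Cbs, the first, was barely detected, at 0.106 to 0.278 CPM, and its log2 fold change of 0.56 (SE 0.45, edgeR adjusted p = 0.544) rests on 8 to 15 counts in acLDL-low libraries 1 to 3 and 12 to 20 in acLDL-high libraries.

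Of the 9 transporters, Slc6a9 alone was called. It encodes the glycine transporter GLYT1 and measured 142.5, 115.6 and 178.9 CPM in acLDL-low and 129.3, 96.1 and 150.2 CPM in acLDL-high replicates 1 to 3. All 3 acLDL-high libraries lay below their partners, by -0.14, -0.27 and -0.25, and the ranges overlapped. The log2 fold change was -0.22 (SE 0.04, edgeR adjusted p = 0.0120), lost without pair 3 (0.131, in a range from 0.00164 to 1). At chr4:117834506-117875198 (GRCm38, plus strand), 1986 of its 5141 exon bases overlap Gm17114, Ccdc24 and B4galt2 on the opposite strand and such reads cannot be told apart.

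Slc7a11, the cystine importer xCT, had the opposite sign. Its levels were 146.6, 133.8 and 249.5 CPM in acLDL-low and 161.6, 128.3 and 277.6 CPM in acLDL-high replicates 1 to 3. Pairs 1 and 3 were higher in acLDL-high cells and pair 2 was lower, and the log2 fold change was 0.08 (SE 0.05, edgeR adjusted p = 0.410). Its partner subunit Slc3a2 had -0.07 (edgeR adjusted p = 0.404), and Slc7a5, the leucine carrier LAT1 that shares that subunit, also had -0.07 (edgeR adjusted p = 0.422). For the neutral amino acid carriers the log2 fold changes were -0.12 for Slc1a4, -0.12 for Slc1a5 and -0.01 for Slc38a2 (edgeR adjusted p = 0.172, 0.195 and 0.941). Slc1a5 was called without replicate pair 1 (edgeR adjusted p = 0.0311, up to 1 over the alternatives). The cationic carriers Slc7a1 and Slc7a3 had -0.04 and -0.21 (edgeR adjusted p = 0.662 and 0.511), the latter at no more than 3.03 CPM with pairs of both signs. Only Slc3a2, Slc1a4 and Slc6a9 among the transporters were lower in all 3 pairs.

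The tRNA charging genes were the most uniform of the 4 role groups. All 12 had log2 fold changes below 0, from -0.15 to -0.03, and all 12 were lower in acLDL-high cells in all 3 pairs, yet none was called by edgeR. At an unadjusted p under 0.05, 8 were lower and 0 higher, against 8.73% and 10.6% of all genes. DESeq2 called 2 lower, Aars (adjusted p = 0.0133) and Yars (0.0409), against 0.909% of all genes. Aars, the alanyl-tRNA synthetase, had 667.1, 775.8 and 863.1 CPM in acLDL-low and 597.7, 691.8 and 783.7 CPM in acLDL-high replicates 1 to 3. Its pair differences were nearly the same, -0.16, -0.17 and -0.14, and the log2 fold change was -0.15 (SE 0.04, edgeR adjusted p = 0.0577, between 0.0133 and 1 over the alternatives). Its exons share 1326 bases with Exosc6 on the same strand.

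Yars, the tyrosyl-tRNA synthetase, lay just outside the threshold. Its levels were 159.9, 210.7 and 207.3 CPM in acLDL-low and 147.7, 187.6 and 183.4 CPM in acLDL-high replicates 1 to 3, a small step down in each pair. The log2 fold change was -0.15 (SE 0.04, edgeR adjusted p = 0.0501), and 4 of the 9 alternatives put it under 0.05, with a range from 0.0409 to 1. Those of Sars, Gars, Tars, Lars, Cars and Nars were between -0.12 and -0.10, and those of Iars, Xpot, Wars and Eprs between -0.08 and -0.03, with edgeR adjusted p-values from 0.152 to 0.746. Eprs, which charges both glutamate and proline tRNAs, was closest to 0.

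The synthetases outside the set gave a reference of the same enzymatic function. Among the 9 other cytosolic synthetases, 6 (66.7%) had log2 fold changes below 0, against 49.4% of all genes, with a median of -0.02. In all 3 pairs, 1 was lower and 1 higher (all genes, 19.4% and 20.9%). None was called by edgeR or DESeq2 or had an unadjusted p under 0.05 (all genes, 8.73% lower and 10.6% higher). Of the 17 mitochondrial synthetases, 11 (64.7%) were below 0, with a median of -0.05 and a range from -0.17 to 0.22. In all 3 pairs, 4 of them were lower and 3 higher. Either tool called 0 of the 17, and at an unadjusted p under 0.05, 1 was lower and 1 higher. The 11 synthetases of the set had a median of -0.11. These are descriptions of the lists, and the difference between them was not tested.

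**Figure D3:**
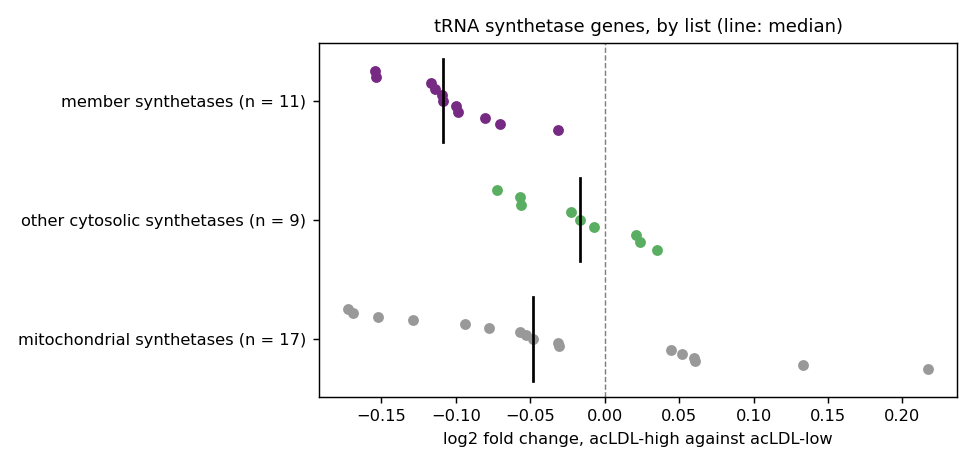
Log2 fold change of acLDL-high over acLDL-low cells (x axis) for each tRNA synthetase gene, in rows for the 11 in the set, 9 other cytosolic and 17 mitochondrial ones, with a vertical line at each median. All 11 synthetases of the set lie left of 0, with a median of -0.11, while the other lists straddle 0.

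Levels between genes can be set side by side only per length, as RPKM, the CPM divided by the kilobases of exon. This length joins all annotated exons of a gene, from 1504 bases for Cebpb to 18102 for Eprs. The order of the genes thus depends on the annotation too. On that scale the members with the highest mean over the 6 libraries were Shmt2 (183.8 RPKM), Atf4 (166.3), Slc7a5 (161.1), Gars (152.3) and Asns (147.2). Cbs (0.0224 RPKM), Gdf15 (0.0247) and Slc7a3 (0.614) were lowest. Group medians of mean RPKM were 65.1 for the tRNA charging genes, 61.4 for the synthesis enzymes, 32.2 for the transporters and 28.4 for the regulators. Every called member had a mean of at least 8.94 RPKM, the level of Ddit3.

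Like most genes tested, the members varied more between occasions than between the populations. The range of the mean log2 CPM over the 3 occasions exceeded the size of the log2 fold change in all 42 tested members. It did so in 11988 of all 12572 genes too, so this was not particular to the members. The median range was 0.64, beside 0.45 for all genes. Replicate 1 was the lowest occasion for 33 members (78.6%), against 28.5% of all genes. Replicate 2 was the highest for 19 (45.2%) and replicate 3 for 20 (47.6%), against 39.8% and 30.6% of all genes. Chac1 had the widest range, 3.51 on the log2 scale, followed by Sesn2 with 2.17. All 12 tRNA charging genes were lowest in replicate 1, and their median range was 0.40. The acLDL-high libraries followed their acLDL-low partners from occasion to occasion, so these shifts belong to both populations. RNA and culture of an occasion cannot be told apart here. Library totals also differed within an occasion, as in replicate 3 (70263372 counts in acLDL-low, 94216786 in acLDL-high), and their part was not tested.

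**Figure D4:**
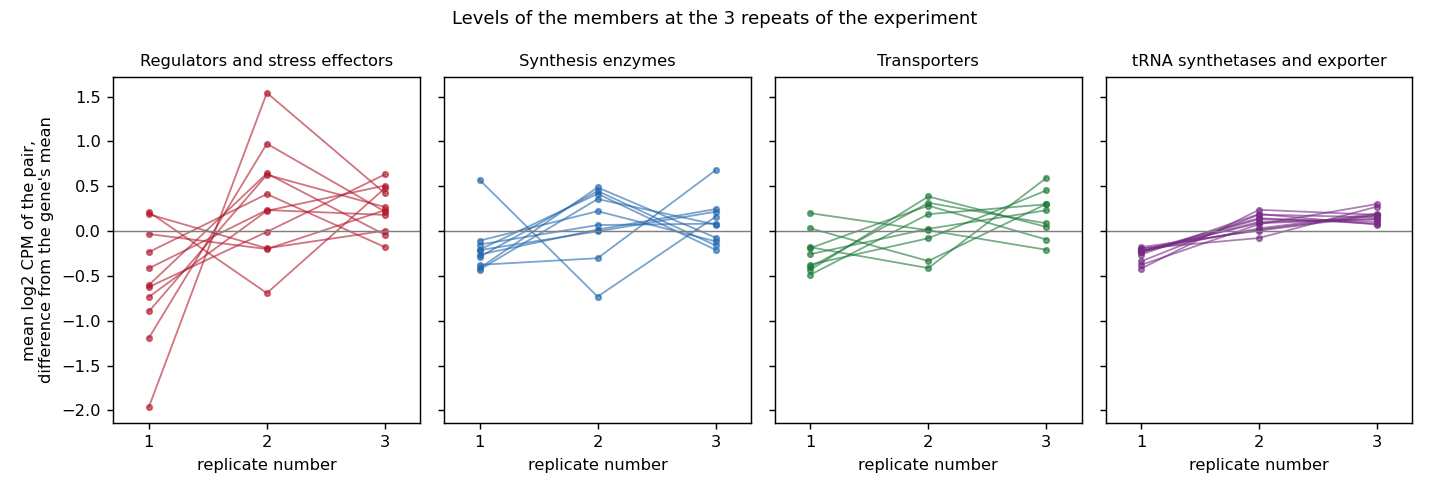
Mean log2 CPM of the 2 libraries of each occasion, as the difference from the gene's own mean (y axis), against replicate number (x axis), with 1 line for each tested member in 4 panels by role. Replicate 1 is lowest for 33 of the 42 members, and the regulators spread furthest.

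Upstream of ATF4, transcripts of the sensing machinery did not pass the test. None of the 7 tested eIF2 kinases and their activators and none of the 9 genes of eIF2, eIF2B and a further eIF2 phosphatase subunit was called by edgeR or DESeq2 or had an unadjusted p under 0.05, with medians of -0.07 and -0.02. These proteins act through phosphorylation, which transcript levels do not measure. Of 13 genes of the unfolded protein response outside the ATF4 arm, such as the chaperones and sensors of the endoplasmic reticulum, 0 were called by either tool, with a median of -0.01. At an unadjusted p under 0.05, 1 of these 13 was lower and 0 higher, where 8.73% of all genes tested were lower and 10.6% higher.

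Further genes commonly listed as ATF4 targets mostly went the same way as the members. Of 21 tested, 17 (81%) were below 0, against 49.4% of all genes, with a median of -0.10. Here edgeR called 7 lower and 0 higher (all genes, 1.32% and 3.43%). DESeq2 called 6 lower and 0 higher (all genes, 0.909% and 3.22%). At an unadjusted p under 0.05, 9 were lower and 1 was higher, beside 8.73% and 10.6% of all genes. The higher one was Atf3 (0.19, edgeR adjusted p = 0.209), with pairs of both signs. Ddit4, which encodes the mTORC1 inhibitor REDD1, had 74.3, 109.5 and 86.3 CPM in acLDL-low and 54.2, 94.5 and 60.3 CPM in acLDL-high replicates 1 to 3. Its acLDL-high library was lower in each pair, and the log2 fold change was -0.39 (SE 0.06, edgeR adjusted p = 0.00164). Stc2, a secreted stanniocalcin, had -0.29 (SE 0.04, edgeR adjusted p = 0.00298). The remaining called genes were Soat2, an acyltransferase that esterifies cholesterol (-0.56), Tsc22d3, the glucocorticoid-induced GILZ (-0.28), Slc38a7, a glutamine carrier (-0.24), Herpud1, of endoplasmic reticulum degradation (-0.23), and Gpt2, a mitochondrial alanine transaminase (-0.17), with edgeR adjusted p-values of 0.0097, 0.0424, 0.0218, 0.0145 and 0.0357. Ddit4 and Tsc22d3 are also known targets of hypoxia and glucocorticoids.

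Among neighbouring pathways, the amino acid sensing genes of mTORC1 were mixed in direction. Of 12, 8 (66.7%) had log2 fold changes below 0, against 49.4% of all genes, with a median of -0.03. In all 3 pairs, 5 were lower and 3 higher (all genes, 19.4% and 20.9%). At an unadjusted p under 0.05, 4 were lower and 2 higher (all genes, 8.73% and 10.6%). By edgeR, 1 was called higher and 0 lower (all genes, 3.43% and 1.32%). The called gene was Sesn3, a stress-induced sestrin, higher in acLDL-high cells (0.26, SE 0.05, edgeR adjusted p = 0.00899), the opposite direction to its paralog Sesn2. Of 9 NRF2 genes of cystine and glutathione metabolism, which share Slc7a11 as a target, 0 were called by edgeR or DESeq2, and the median was 0.08. At an unadjusted p under 0.05, 2 of these 9 were higher and 1 was lower (all genes, 10.6% and 8.73%). The difference between these lists and the members was not tested.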

How the data were processed

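Poly(A) RNA of 6 sorted populations was sequenced as paired-end stranded mRNA libraries. Per the labels and the study's methods, the authors aligned reads to mm10 with STAR 2.5.2a and counted them per gene with featureCounts 1.4.3-p1, and the deposited table holds raw counts for 53379 gene IDs. Annotation release and strand setting are not given in the sources used here. A deposited table of the authors' own DESeq2 1.20.0 comparison (mean normalized signal, log2 fold change, its error on the log2 scale, Wald score, p-value and adjusted p-value) was used only for gene symbols and for the list of 15973 protein-coding genes.

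Counts were fitted with edgeR 4.0.16 in R 4.3.3 (filterByExpr, TMM scaling, quasi-likelihood test, replicate number as a block), with Benjamini-Hochberg adjustment over all genes tested and a threshold of 0.05. On counts simulated from the fitted model, with 200 genes changed by a log2 fold change of 1, the test called 177 of them and 9 others. Changes as small as those of the members were not simulated. The standard error (SE) is the log2 fold change over the square root of F. CPM used TMM-scaled library sizes, with a prior count of 2 in log2 CPM. The replicate numbers come from the labels, and the series describes repeats of the experiment on separate occasions. Deviations from the group means correlated within each pair (r = 0.795, 0.846 and 0.799). Between pairs r was at most -0.0882, but centring on group means pulls these values below 0 when pairs match. The chi-square per degree of freedom between the counts of 2 libraries was 20.5, 21.5 and 26.9 within pairs and at least 122 otherwise. The numbers thus pair the libraries. P-values set the difference between the populations against its variation over these occasions of 1 clone, the level of each occasion being removed by the block. The quasi-likelihood test estimates that variation for each gene with information shared across genes. P-values and SEs are therefore not the spread of a gene's own 3 pair differences, which can be wider. No 2 libraries agreed within sampling noise. The 3-count floor covers counting error only.

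The members, their roles and the comparison lists were chosen with earlier results of these data known. Every member is named, and genes of the comparison and marker lists where called, with Atf3 added for its sign. Exons and positions come from GENCODE M21 on GRCm38, where 53274 of the 53379 IDs were found. Promoter windows are from RefSeq on GRCm38.p6, and the sequences of 1 matching gene are not reported here. The alternatives were no replicate block, DESeq2 size factors, the DESeq2 1.42.0 Wald test, no low-count filter, at least 10 counts in every library, all gene IDs, leaving out each pair, and an adjusted p under 0.01.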

Additional observations from a re-analysis of the deposited data

How the results depend on the processing

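With the replicate number as a block, 597 genes were called. Without the block 0 genes and 0 members were called and 45 genes had an unadjusted p under 0.05, while the log2 fold changes of the 7 members stayed below 0 (-0.49 to -0.15). Without the low-count filter 932 genes were called and 1 member, Cebpb, was higher. At an adjusted p under 0.01 the calls were 199, with 1 member, Trib3, lower. Leaving out each pair in turn gave 126 (without replicate 3) to 869 (without replicate 2) calls, 1 to 8 members lower and 0 to 1 higher. DESeq2 size factors, the DESeq2 Wald test, at least 10 counts and all gene IDs gave 468 to 666 calls and 5 to 8 members lower. The count of members with a log2 fold change below 0 stayed between 38 and 40, and their median ran from -0.12 to -0.09 over the 9 refits. Slc38a2, at -0.0088 with an edgeR adjusted p of 0.941, changed sign with all gene IDs (0.0014), and ran from -0.029 to 0.012 when pairs were left out. Fewer libraries enter the fits without a pair, and the cause of the other changes was not tested. Calls in these data need the pairing, and leaving out pair 3 removed 6 of the 7 member calls. Counts were lowest for Cbs and Gdf15.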
